A study of Rattus norvegicus with 6 samples.

Results

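The genes of the cytosolic ribosome code for the proteins of its small (40S) and large (60S) subunit. They were taken from a table of 35362 gene rows by name: symbols that begin with Rpl or Rps and a number, together with Rplp0, Rplp1, Rplp2 and Rpsa. The rule used no measured value and left out the ribosomal S6 kinases, which are enzymes and not ribosomal proteins. It found 97 rows. Of these, 31 belong to the 40S subunit, 42 to the 60S subunit and 3 to the P-stalk of the 60S subunit, and 21 are paralogues or named copies.

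The RNA came from INS-1 cells, a rat insulinoma line that stands in for the pancreatic beta cell. All cells carried a retroviral pMX-puro construct for Flag-tagged menin, a nuclear scaffold protein coded by Men1 that binds histone methyltransferases. In 3 libraries the menin was the S487A mutant, with alanine in place of a serine. In the other 3 it was the S487D mutant, with aspartate, an acidic residue that is often used to stand in for a phosphorylated serine. No deletion of the cells' own Men1 is named, and cells without a construct or with wild-type menin were not analysed here. Higher and lower therefore always mean S487D against S487A. Whether the 3 libraries of a mutant stem from separate dishes or infections is not stated in the labels. The p-values hence reflect only the spread among these samples, possibly a technical one, and a mutant cannot be told apart from the cell population that carries it.

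A ribosome holds a single copy of nearly every ribosomal protein, and the subunits are put together in the nucleolus from these proteins and ribosomal RNA. The mRNAs of ribosomal proteins are among the most abundant of a growing cell. Most begin at a C and run on in pyrimidines (C or T in the DNA), a stretch called the 5′ terminal oligopyrimidine or TOP motif. Through this motif the kinase mTOR and the RNA-binding protein LARP1 set how much of these mRNAs is translated and stored. Free Rpl5 and Rpl11, bound to 5S ribosomal RNA, can block Mdm2, the ubiquitin ligase that degrades p53. In beta cells, ribosome supply serves the large output of insulin.

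The stretches around the start sites of 6 members are shown because they hold or lack the pyrimidine run and belong to members at both ends of the range of change. Rpl5, Rps27l, Rpl38 and Rps27 are among the members with the largest rise, while Rpl34 and Rpl29 had log2 changes just below 0. Each line gives 100 bases 5′ to 3′ on the gene's own strand from RefSeq (GRCr8 build), with 80 bases before the annotated start and 20 from it, and capitals mark the longest C or T run that touches the 10 bases on either side of the start.
Rpl5, chr14:1995206-1995305, minus strand: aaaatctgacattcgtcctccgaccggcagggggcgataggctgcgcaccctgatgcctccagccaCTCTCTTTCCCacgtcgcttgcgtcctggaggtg
Rps27l, chr8:76443578-76443677, plus strand: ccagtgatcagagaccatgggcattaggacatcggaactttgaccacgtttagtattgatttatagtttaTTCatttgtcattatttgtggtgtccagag
Rpl38, chr10:100200355-100200454, plus strand: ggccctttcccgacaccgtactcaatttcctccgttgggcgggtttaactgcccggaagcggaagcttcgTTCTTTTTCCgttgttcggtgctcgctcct
Rps27, chr2:177964587-177964686, minus strand: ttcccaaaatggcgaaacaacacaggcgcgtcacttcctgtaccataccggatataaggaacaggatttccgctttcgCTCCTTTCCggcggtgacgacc
Rpl34, chr2:221962264-221962363, minus strand: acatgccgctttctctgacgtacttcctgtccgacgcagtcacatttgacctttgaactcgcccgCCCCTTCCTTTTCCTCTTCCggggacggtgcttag
Rpl29, chr8:115947563-115947662, plus strand: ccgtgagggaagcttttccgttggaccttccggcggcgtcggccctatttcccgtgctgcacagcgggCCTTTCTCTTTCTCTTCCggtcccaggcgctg
The run is 11 bases long in Rpl5, 10 in Rpl38, 9 in Rps27, 20 in Rpl34 and 18 in Rpl29. In Rps27l, the paralogue of Rps27, it is 3 bases long.

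The table gave RPKM, reads scaled by gene length and by the assigned reads of the library, which allows levels to be compared between genes per length. Reads assigned to genes ran from 9444801 to 10867550 per library. Men1, whose reads cover the cells' own gene and may cover the construct, was at 71.2, 76.7 and 75.0 RPKM in S487A and at 113, 103 and 119 in S487D, and passed the test (limma adjusted p = 2.89e-05) with a log2 change of 0.58 and SE 0.055. All 10 beta cell markers examined were found and tested, with 7 higher and 2 lower in S487D. The shares over all genes tested were 20.1% higher and 24.3% lower. The 2 lower markers were Nkx6-1 (log2 change -1.03, limma adjusted p = 5.67e-06) and Neurod1 (-0.14, limma adjusted p = 0.0254). The call of Neurod1 was lost with each library centred on its median (-0.09, limma adjusted p = 0.119). The insulin gene Ins1 was at 4683 ± 292 RPKM with S487A and at 16700 ± 551 with S487D (SD, n = 3 each). None of the 15 markers of other cells found in the table was high enough to test. Their summed level was 1.22 to 2.03 RPKM in S487A and 0.996 to 1.39 in S487D, and Sst, Ppy, Prss1, Cpa1, Amy2a3, Col3a1, Ptprc and Hbb were listed at 0. Rows of ribosomal RNA took 2.49, 2.44 and 0.930% of reads in S487A and 2.15, 4.50 and 2.91% in S487D.

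Ribosomal protein mRNAs were modestly higher in S487D across both subunits. Of the 97 rows, 72 passed the filter of at least 1 RPKM in at least 3 libraries, and 46 of these rose, 0 fell and 26 did not pass the test (limma on log2(RPKM + 1), Benjamini-Hochberg adjusted p under 0.05 over all genes). Over all 12527 genes tested, 44.4% were called, 20.1% as higher and 24.3% as lower. The members' share called higher was 63.9%. Their median log2 change was 0.19, a median fold of 1.14, against -0.01 over all genes tested. The log2 change was above 0 in 68 members and below 0 in 4 (Rpl22l1, Rpl29, Rpl39 and Rpl34). Sizes were small: 19 of 72 members passed 1.2-fold in the fitted values and 1 of them, Rpl5, passed 1.5-fold, while 29 of the 46 called members were under 1.2-fold. The values of the groups did not overlap in 44 members that were higher in S487D and in 1 that was lower, where the shares over all genes tested were 25.0% and 29.5%. In bulk RNA a change in every cell and a change in part of the cells cannot be told apart.

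The size of the rise depended on how libraries were scaled. After quantile normalization, which forces the same distribution of values on every library, 24 members were called higher and 4 lower (Rpl3, Rpl22l1, Rpl29 and Rpl34). This setting also took the log2 change of Ins1 from 1.84 to -2.8e-15, so it can remove a large difference in a gene of high level. The beta cell markers had 5 called higher and 2 lower under it, with a median log2 change of 0.11 in place of 0.43. The share called higher was 33.3% of members and 24.7% of all genes. The members' median log2 change was 0.07 beside 0.03 over all genes. The 40S genes then had 10 called higher, 0 lower and a median of 0.09, and the 60S genes 11 higher, 3 lower and a median of 0.04. After each library was centred on its median, 55 (76.4%) were called higher and 0 lower, with a median of 0.25. Over all genes the median was then 0.04, with 28.0% called higher. The members' median stood 0.20 above that of all genes here and in the main fit. Upward calls made up 58.9% of all calls over all genes in place of 45.3%.

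**Figure D1:**
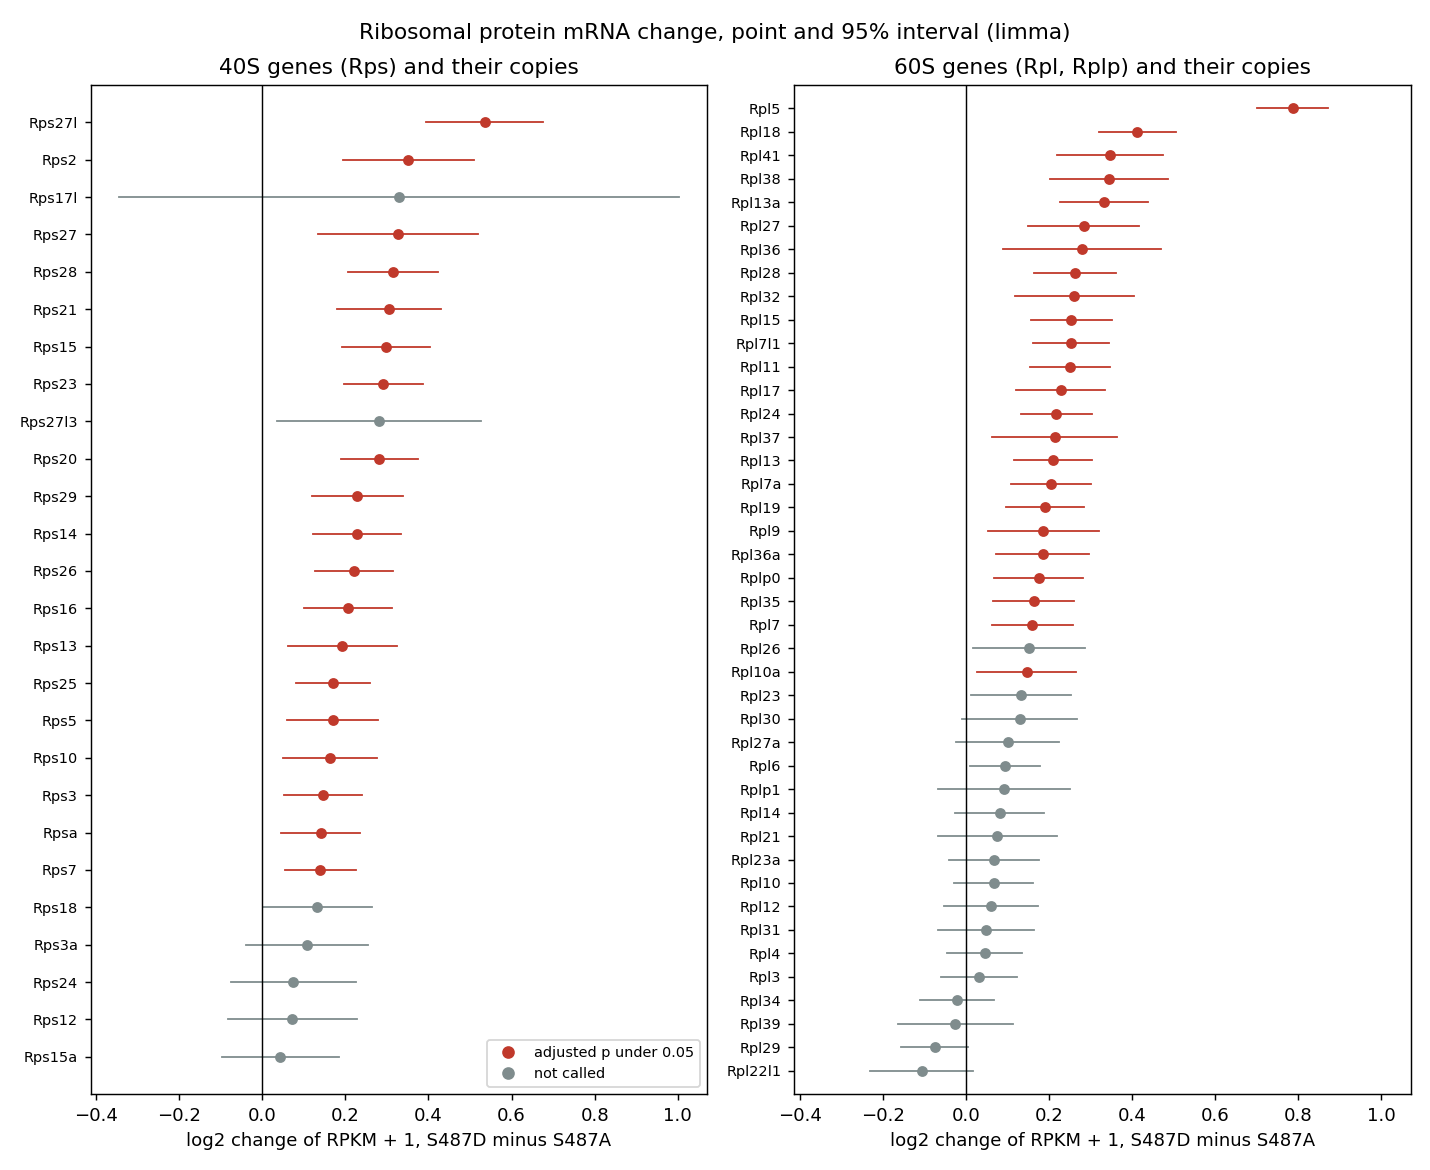
Log2 change of RPKM + 1 (S487D minus S487A, horizontal axis) of the tested ribosomal protein genes, without some that are not reported here, 40S genes on the left and 60S genes on the right, each with its 95% interval from limma; red marks an adjusted p under 0.05. The points spread from -0.11 (Rpl22l1) to 0.79 (Rpl5), and all but Rpl22l1, Rpl29, Rpl39 and Rpl34 lie to the right of 0.

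Among the 40S proteins, 20 of 26 tested genes rose, 0 fell and 6 did not pass the test, Rps3a, Rps12, Rps15a, Rps18 and Rps24 among them. All 26 log2 changes were above 0, with a median of 0.20. Rps2, which lies near the channel where mRNA enters the ribosome, was at 794, 795 and 877 RPKM in S487A and at 996, 1173 and 985 in S487D. The groups did not overlap, although a single library was the highest of each group by a wide margin, and the log2 change was 0.35 with SE 0.071 (limma adjusted p = 0.00305). It was 0.15 after quantile normalization, where the call was lost (limma adjusted p = 0.0935). Rps28, which lies near the channel where mRNA leaves, rose from 174 ± 10.5 to 216 ± 5.0 RPKM (SD, n = 3 each), a log2 change of 0.31. Rps15, a protein of the head of the small subunit, was the 40S gene with the highest level. It went from 1443 ± 75.7 to 1773 ± 24.4 RPKM, a log2 change of 0.30 (limma adjusted p = 0.000756), and just missed the threshold after quantile normalization (0.26, limma adjusted p = 0.0503).

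Rpsa, which is also known as a laminin receptor, showed how close to the threshold the smaller rises lay. It was at 466, 486 and 511 RPKM in S487A and at 537, 540 and 535 in S487D. The S487D libraries were nearly equal and all above the S487A libraries, which were more spread. The log2 change was 0.14 (SE 0.042, limma adjusted p = 0.0224), and the call was lost without any one of S487A replicates 1 and 2 and S487D replicates 1, 2 and 3 (log2 change 0.11 to 0.14, limma adjusted p from 0.0520 to 0.0709). It was lost also after quantile normalization (0.03, limma adjusted p = 0.439), without the filter (limma adjusted p = 0.0693) and without the intensity trend (limma adjusted p = 0.0625). Rps10, a protein of the head of the small subunit, rose from 360 ± 21.8 to 403 ± 14.6 RPKM (0.16, limma adjusted p = 0.0267), and its call was lost without any one of S487A replicates 1 and 2 and S487D replicates 1 and 2 (0.12 to 0.16, limma adjusted p from 0.0674 to 0.0974). It was lost also after quantile normalization (0.07, limma adjusted p = 0.137), without the filter (limma adjusted p = 0.0794) and without the intensity trend (limma adjusted p = 0.0665). Rps12 was at 528 ± 34.7 and 555 ± 50.0 RPKM with no call (0.07, limma adjusted p = 0.432).

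Among the 60S proteins outside the stalk, 23 of 39 tested genes rose, 0 fell and 16 did not pass the test. The median log2 change was 0.18, and the changes ran from -0.08 to 0.79. Rpl5, which binds 5S ribosomal RNA, had the largest rise of all members. Its level was 270, 259 and 275 RPKM in S487A and went up to 469, 469 and 453 in S487D, a rise of 0.79 in log2 (SE 0.038; limma adjusted p = 4.22e-07). Both groups were tight and far apart. Rpl11, its partner in binding 5S ribosomal RNA and Mdm2, was at 729, 720 and 755 RPKM in S487A and at 874, 910 and 839 in S487D. Here the groups also stood apart, but the log2 change was 0.25 with SE 0.043 (limma adjusted p = 0.00124), and after quantile normalization it was 0.04 with no call (limma adjusted p = 0.348).

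Rpl18 rose from 490 ± 21.5 to 652 ± 7.2 RPKM, a log2 change of 0.41 (limma adjusted p = 4.43e-05), and Rpl13a, which is also known for silencing inflammatory mRNAs, rose from 493 ± 29.4 to 621 ± 9.82 (0.33). Rpl38, known for its part in the translation of patterning genes, was at 355, 330 and 379 RPKM in S487A and at 441, 486 and 425 in S487D (0.34, limma adjusted p = 0.00177). Every S487D library of Rpl38 was above every S487A library. Rpl41, a very short basic peptide, rose from 1333 ± 79.2 to 1697 ± 92.1 RPKM (0.35), and its call was lost after quantile normalization (0.29, limma adjusted p = 0.067).

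Other abundant or central 60S genes showed little difference. Rpl3, which reaches the catalytic centre of the ribosome, was at 790, 811 and 822 RPKM in S487A and at 858, 819 and 802 in S487D, a log2 change of 0.03 (95% interval -0.06 to 0.12, limma adjusted p = 0.55). The groups overlapped, and after quantile normalization the gene was called lower (-0.20, limma adjusted p = 0.000805). Rpl10, which joins the subunit late in its assembly, was at 508 ± 16.8 and 533 ± 18.5 RPKM (0.07, limma adjusted p = 0.226), and was called higher with each library centred on its median (0.13, limma adjusted p = 0.0319). Another 3 genes of the large subunit with copies or high levels also had no call: Rpl21 was at 1476 ± 75.8 and 1558 ± 126 RPKM, Rpl31 at 601 ± 35.9 and 620 ± 22.9 and Rpl30 at 186 ± 10.6 and 203 ± 15.8. Rpl30 was called higher without S487D replicate 3 (0.19, limma adjusted p = 0.0301) and with median centring (0.19, limma adjusted p = 0.0349). Rpl34 was at 533 ± 12.4 and 525 ± 16.8 RPKM and Rpl39, a protein of the tunnel through which the new peptide leaves, at 103 ± 8.9 and 101 ± 3.61. Both had log2 changes within 0.03 of 0, whose sign turned under other settings. Rpl29, singled out after its values were seen as the member whose groups did not overlap in the lower direction, was at 295, 294 and 295 RPKM in S487A and at 277, 274 and 288 in S487D (log2 change -0.08, limma adjusted p = 0.12). The S487A libraries were almost equal and all above S487D, though the difference was a small one.

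The P-stalk is the arm of the 60S subunit that recruits elongation factors. Rplp0, which anchors it, had the highest level of all members, at 2320, 2456 and 2557 RPKM in S487A and at 2802, 2701 and 2773 in S487D. The groups did not overlap, and the log2 change was 0.18 with SE 0.048 (limma adjusted p = 0.0144). The call was lost without S487D replicate 1 (0.16, limma adjusted p = 0.0653) and without the filter (limma adjusted p = 0.142). Over 16 alternatives the log2 change of Rplp0 ran from 0.14 to 0.38. The median of the 2 tested stalk genes was larger after quantile normalization, 0.21 in place of 0.13. Rplp1 was at 1142 ± 83.9 and 1217 ± 104 RPKM with overlapping groups (0.09, limma adjusted p = 0.325), and Rplp2 was listed at 0 in every library.

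Of the 21 paralogues and named copies, 5 could be tested, of which 2 rose, 0 fell and 3 did not pass the test. Rps27l, which is induced by p53 in other cells, was at 49.8, 44.3 and 51.4 RPKM in S487A and at 74.8, 70.4 and 66.9 in S487D, a rise of 0.54 in log2 (SE 0.062; limma adjusted p = 0.000116). Its groups lay far apart. Its partner Rps27 was at 415, 433 and 458 RPKM in S487A and at 547, 625 and 476 in S487D (0.33, limma adjusted p = 0.0119). Rps27 did not overlap either, but its S487D libraries were widely spread, and its call was lost without the filter (limma adjusted p = 0.0545). Rpl7l1 rose from 64.0 ± 0.814 to 76.5 ± 2.93 RPKM (0.25, limma adjusted p = 0.0009), beside 605 ± 20.4 and 677 ± 26.1 for Rpl7 (0.16, limma adjusted p = 0.0146). The call of Rpl7 was lost without S487A replicate 2 (0.15, limma adjusted p = 0.053) and without S487D replicate 1 (0.13, limma adjusted p = 0.0721), and also after quantile normalization (0.03, limma adjusted p = 0.468) and without the filter (limma adjusted p = 0.0579).

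Rpl22l1 went the other way, at 126, 111 and 124 RPKM in S487A and at 117, 107 and 110 in S487D, with overlapping groups (-0.11, limma adjusted p = 0.149). Without S487A replicate 2, the lowest of its group, it was called lower (-0.16, limma adjusted p = 0.0331). Its partner Rpl22 was listed at 0. The copy Rps27l3 was at 27.8 ± 2.09 and 34.3 ± 5.93 RPKM with no call (0.28, limma adjusted p = 0.0619), and was called higher without S487D replicate 3 (0.42, limma adjusted p = 0.00241). It was called higher also with a filter at 5 RPKM (limma adjusted p = 0.0432), with median centring (0.34, limma adjusted p = 0.0272), with voom on recovered reads (0.30, limma adjusted p = 0.0288) and with the most read genes and ribosomal RNA left out (0.31, limma adjusted p = 0.0478). Rps17l, near the filter at 2.06 ± 0.687 and 3.05 ± 1.66 RPKM, was not called (0.33, limma adjusted p = 0.406) and was called higher without S487D replicate 3 (0.73, limma adjusted p = 0.00888). Copies that share sequence may exchange reads, and the sources used here do not say how the authors assigned them.

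The other 25 rows reached at most 11 reads in a library, and 8 of them had 0 reads in all libraries. They are Rpl10l, Rpl22, Rpl22l2, Rpl30l1, Rpl31l1, Rpl31l2, Rpl31l3, Rpl31l4, Rpl34l1, Rpl35a, Rpl39l, Rpl3l, Rpl5l1, Rpl8, Rplp2, Rps10l1, Rps12l2, Rps12l3, Rps19, Rps19l1, Rps27a, Rps4x, Rps4y2, Rps6 and Rps9. Several of them, such as Rpl8, Rps6, Rps9 and Rps19, code for proteins that every ribosome needs, so a listing near 0 is no measurement of their mRNA. For 2 of them the reads stood in another row at the same place under a number in place of a symbol. RefSeq names that row Rps27a on chromosome 14, and its level was 113 ± 10.8 RPKM for S487A and 137 ± 9.86 RPKM for S487D, a log2 change of 0.28 (limma adjusted p = 0.0131). The row named Rps4x on chromosome X was at 163 ± 3.2 and 157 ± 2.9 RPKM (-0.05, limma adjusted p = 0.27). The counts above hold neither of these rows.

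Libraries of a group differed in the level of the members as a whole. Set against the mean of S487A, the median log2 difference of the 72 members was -0.03, -0.04 and 0.07 in S487A and 0.21, 0.23 and 0.13 in S487D. All S487D medians lay above all S487A medians, and the closest pair was S487A replicate 3 and S487D replicate 3. S487A replicate 3 was the highest of its group in 67 of 72 members, and S487D replicate 3 was the lowest of its group in 60. The members thus moved together within groups, and they are not 72 independent measurements of the mutants. With single libraries left out in turn, 35 to 51 members were called higher.

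**Figure D2:**
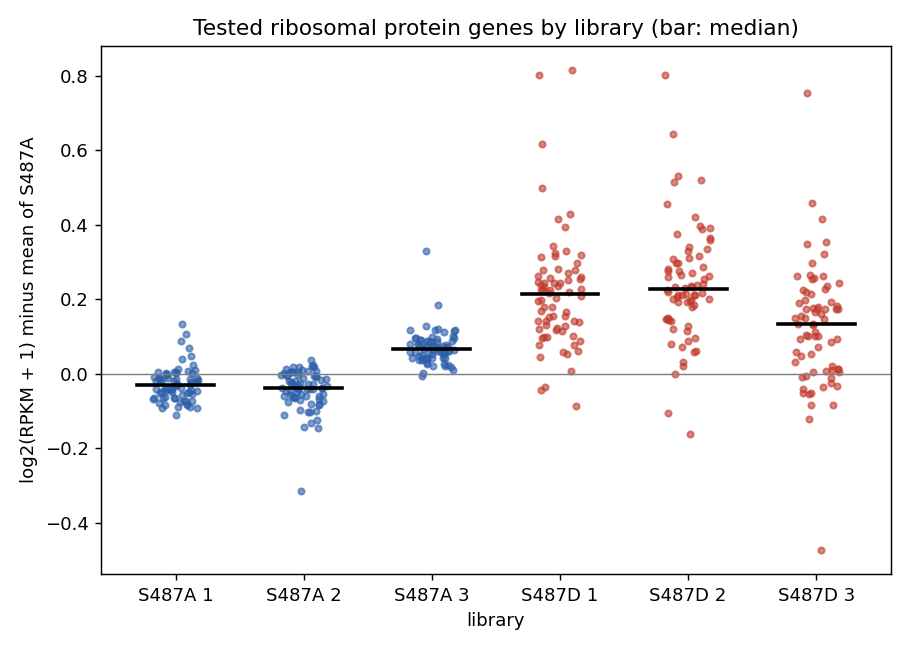
Each point is 1 of the 72 tested ribosomal protein genes in 1 library, as log2(RPKM + 1) minus that gene's mean over the S487A libraries; the bar is the library's median. The medians of S487A lie between -0.04 and 0.07 and those of S487D between 0.13 and 0.23.

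All 97 rows together took 2.69, 2.72 and 2.89% of assigned reads in S487A (mean 2.76 ± 0.109, SD, n = 3) and 3.19, 3.24 and 3.06% in S487D (3.16 ± 0.0914). The shares did not overlap between groups. S487A replicate 3, with the highest share of its group, had the lowest share in the overlapping ribosomal RNA rows, 0.930%. S487D replicate 2, with the highest share of all, had the highest, 4.50%. From Rn45s and Rn5s alone these were 0.465% and 2.25%. With the ribosomal RNA reads taken out of the total, the shares were 2.75, 2.78 and 2.92% in S487A and 3.26, 3.39 and 3.15% in S487D. With these 2 libraries left out, 44 members were called higher and 0 lower.

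**Figure D3:**
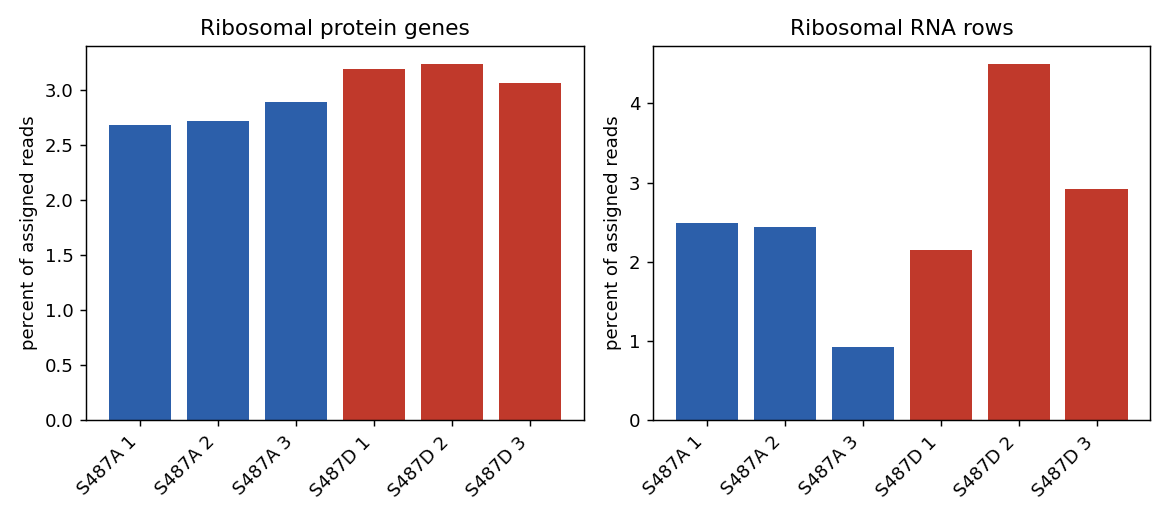
Percent of reads assigned to genes in each library that fell on the 97 ribosomal protein rows (left) and on rows of ribosomal RNA (right), S487A in blue and S487D in red; each bar is 1 library and each axis starts at 0. The left bars reach 2.69 to 2.89% in S487A and 3.06 to 3.24% in S487D. The ribosomal RNA rows on the right overlap, so the same reads can count repeatedly.

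Genes near the members on the chromosomes mostly did not move with them. For each member, the 20 nearest tested genes outside the family were taken on its chromosome (rn6). The member was above the median of these neighbours in 70 of 72 cases, with a median difference of 0.20 in log2 change. The neighbours' medians themselves had a median of 0.007, so this count largely repeats that 68 members lay above 0. Neighbours were picked by place only and not matched to the members in level or length. Rpl5, on chromosome 14, was the main exception: its neighbours had a median log2 change of 0.70, beside 0.79 for Rpl5 itself. The genes around Rpl5 were thus higher in S487D as well. Rpl38 on chromosome 10 was higher in S487D among neighbours with a median of -0.53, and Rpl22l1 on chromosome 2 had its -0.11 among neighbours with a median of -0.75. The neighbours' medians of the other members lay between -0.18 and 0.18. What shifts these stretches was not tested.

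**Figure D4:**
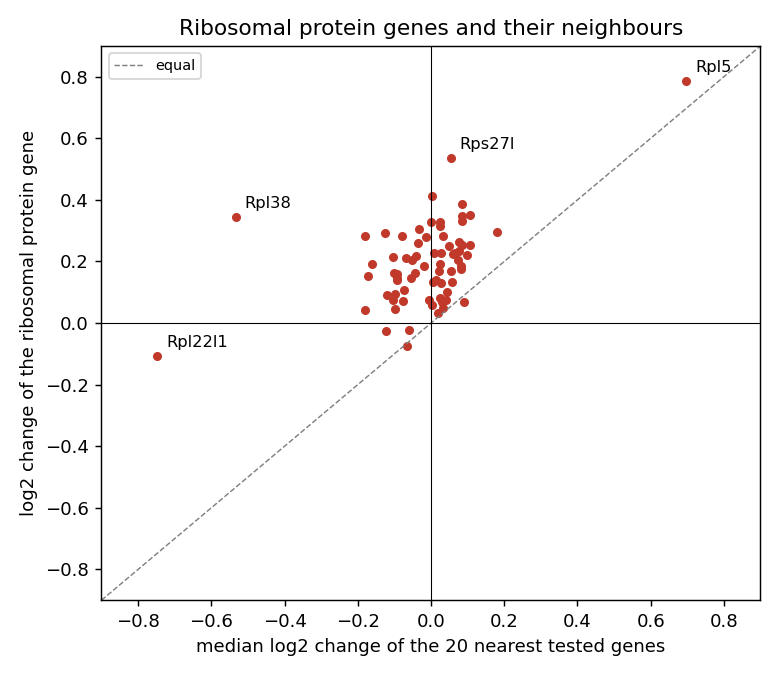
Log2 change (S487D minus S487A) of each of the 72 tested members (vertical axis) against the median log2 change of its 20 nearest tested genes (horizontal axis); the dashed line marks equal values. Rpl5 (0.79 against 0.70), Rpl38 (0.34 against -0.53) and Rpl22l1 (-0.11 against -0.75) stand apart from the other points, which lie between -0.18 and 0.18 on the horizontal axis.

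The tested members are mostly short genes (median length 609 bases) with many reads, and genes of that kind were also higher in S487D. Among tested genes outside the family with at least 100 RPKM, 739 in all, 47.0% were called higher and the median log2 change was 0.11. Among the 195 of them that were also at most 1000 bases long, 57.9% were called higher and 10.3% lower, with a median of 0.18. The members' 63.9% called higher and median of 0.19 lay near these values. The median level was 188 RPKM in the 195 genes and 498 RPKM in the members, so they were not matched in level. After quantile normalization the 195 genes had 43.6% called higher and a median of 0.09. The members then lay below them, with 33.3% called higher and a median of 0.07. These limits of level and length were chosen after the values were seen. The genes of the mitochondrial ribosome, which share a role in translation but lie lower, at a median level of 36.6 RPKM, had a median log2 change of 0.13, with 36.8% called higher and 4.41% lower of 68 tested.

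**Figure D5:**
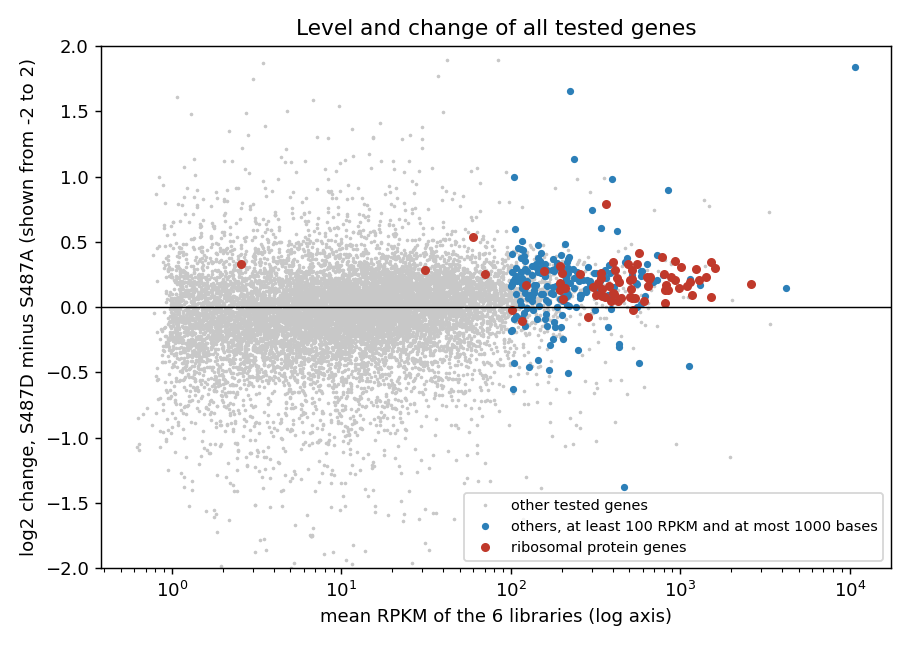
Log2 change (S487D minus S487A, vertical axis, shown from -2 to 2) of all tested genes against their mean RPKM over the 6 libraries (horizontal log axis); members are red, and other genes of at least 100 RPKM and at most 1000 bases are blue. Red and blue points cover much the same band, with medians of 0.19 and 0.18.

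Of 3 tested ribosome components that the naming rule does not catch, 2 rose, 0 fell and 1 did not pass the test. Fau, which carries the small subunit protein eS30 behind a ubiquitin-like domain, rose from 532 ± 28.2 to 646 ± 32.2 RPKM (log2 change 0.28). Gnb2l1, the scaffold protein also called Rack1, did not pass the test at 1082 ± 51.5 and 1141 ± 5.61 RPKM, and Rpl36al was listed at 0.

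Genes that build ribosomes held calls in both directions, as did all genes tested, of which 20.1% were called higher and 24.3% lower. Of 15 tested genes of RNA polymerase I, which makes ribosomal RNA, and its factors, 3 rose, 2 fell and 10 did not pass the test. Their median log2 change was 0.05, and their share called higher was close to that of all genes. Ubtf, which binds ribosomal DNA, went from 34.7 ± 0.105 to 39.7 ± 0.551 RPKM (0.19), Polr1c and Polr1e rose by log2 changes of 0.20 and 0.32, and Ttf1 (-0.21) and the RNA helicase Ddx21 (-0.54) were lower. The call of Ttf1 was lost under both other scalings, quantile normalization and median centring (-0.12 and -0.15, limma adjusted p = 0.159 and 0.0912). Of 56 tested ribosome assembly genes, 26 rose (46.4%), 3 fell and 27 did not pass the test, with a median of 0.12. After quantile normalization 31 were higher and 2 lower, with a median of 0.15, unlike the members, whose higher calls then dropped. With median centring 35 were higher and 2 lower. Dkc1, the pseudouridine synthase of ribosomal RNA, rose from 50.5 ± 2.01 to 75.8 ± 1.87 RPKM (0.58), followed among the named genes by Ltv1 (0.48), Bop1 (0.38) and Nolc1 (0.28). Nmd3, the export adaptor of the 60S subunit, was the largest fall among the named genes, from 17.3 ± 1.89 to 8.65 ± 1.41 RPKM (-0.93), and Bms1 (-0.23) and Mdn1 (-0.16) also fell, Mdn1 with a call lost under both other scalings (-0.08 and -0.11, limma adjusted p = 0.287 and 0.158). Of 16 tested chaperones and importers of ribosomal proteins, 8 rose (Heatr3 by 0.33, Pdcd2 by 0.32, Nap1l4 by 0.21 and Kpnb1 by 0.17 among them), 3 fell (log2 changes of -0.31 for Rpf2, -0.20 for Bccip and -0.19 for Ipo7, whose call was lost with median centring, limma adjusted p = 0.0955) and 5 did not pass the test, with a median of 0.13.

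Genes upstream of ribosomal protein mRNAs, and other mRNAs that share the TOP motif with them, were covered by 3 lists. Their shares called higher were 17.6% (mTOR and LARP1), 38.9% (other TOP mRNAs) and 6.25% (transcription factors). All genes tested had 20.1% called higher and 24.3% lower. Of 17 tested genes of the mTOR and LARP1 pathway, 3 rose (Rheb by 0.28, Akt1s1 by 0.26 and Rps6kb2 by 0.25), 1 fell and 13 did not pass the test, with a median of -0.02. After quantile normalization 4 were higher and 2 lower, and with median centring the median was 0.04. The one that fell, Eif4ebp2, a repressor of translation that mTOR inactivates, went from 127 ± 5.64 to 80.2 ± 4.76 RPKM (-0.66). Of 18 tested genes of other mRNAs with a TOP motif, 7 rose, 1 fell and 10 did not pass the test, with a median of 0.09. After quantile normalization 4 were higher and 3 lower. Btf3 and Eef1d each rose by 0.27, the list also holds Fau, and Eif4b, an initiation factor, fell from 199 ± 5.89 to 133 ± 4.59 RPKM (-0.57). Of 16 tested transcription factors that bind ribosomal protein promoters, 1 rose (Mycl by 0.25), 2 fell (log2 changes of -0.52 for Sp1 and -0.35 for Mxi1) and 13 did not pass the test, with a median of -0.00. After quantile normalization 3 were higher and 2 lower, with a median of 0.01, and with median centring the median was 0.06.

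The list for Mdm2, p53 and ribosomal stress had the largest median of these pathway lists apart from the beta cell markers, 0.39. Of its 13 tested genes, 8 were higher, 2 lower and 3 not past the test. Its share called higher was 61.5%, where over all genes 20.1% were called higher and 24.3% lower. Ribosomal stress itself was not measured, and whether it moved these genes was not tested. Phlda3, a p53 target that restrains Akt, rose from 16.2 ± 0.731 to 43.7 ± 3.65 RPKM (1.38), Cdkn1a, the cell cycle inhibitor p21, from 32.0 ± 1.67 to 57.7 ± 3.33 (0.83), Ccng1 by 0.80 and the nuclease gene Aen by 0.56. Sesn1 (-0.56) and Zmat3 (-0.22), also p53 targets, fell, and the call of Zmat3 was lost under both other scalings (-0.16 under each, limma adjusted p = 0.103 and 0.0865). Of the 10 ribosomal S6 kinase genes left out by the rule, 2 rose, 5 fell and 3 did not pass the test, with a median of -0.20. After quantile normalization 2 were higher and 3 lower, with a median of -0.11, and Rps6kl1 was among those that lost the call (-0.20, limma adjusted p = 0.0848). Rps6ka4 rose from 22.0 ± 1.51 to 35.7 ± 0.342 RPKM (0.68) and Rps6ka5 fell from 7.87 ± 0.381 to 3.84 ± 0.503 (-0.88).

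Promoters were at hand for 71 members. A run of at least 8 C or T that touches the 10 bases on either side of the start stood in 46 of them (64.8%), against 2408 of 18931 other protein-coding genes (12.7%). Among tested members with a promoter, 26 of 35 called higher and 13 of 21 not called held such a run, so Rpl34 and Rpl29 above are 2 of the members with a run and no rise. Motifs were counted on both strands of the 300 bases from 250 before the start. CCGGAAG, the core bound by GABP and other ETS factors, was in 29.6% of the members' promoters and 11.2% of the others, GGGCGG, the GC box, in 53.5% and 43.1%, and TATAAA, the TATA box, in 12.7% and 13.1%. The E box CACGTG was in 7.04% and 7.27%, and AAGATGGC, a YY1 motif, in 7.04% and 3.90%. The palindrome that ZBTB33 is known to bind was in 8 of 71 members (11.3%) and in 106 of the others (0.560%). A match is a description of the letters and not a bound site.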

How the data were processed

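Messenger RNA of 6 libraries of transduced INS-1 cells was measured, 3 labelled S487A and 3 labelled S487D, with groups and replicate numbers from the sample titles. Trizol extraction and an unstranded TruSeq RNA kit were used, per the labels' protocols, so reads of overlapping genes cannot be told apart. Among tested members this touches Rpl15, Rpl35 and Rps25, which overlap an antisense gene by 4 to 28 bases in their genomic spans. The untested Rps4y2 lies over 934 bases within the span of Tmtc1 on the other strand. Per the submitters' processing notes, bcl2fastq 2.17, cutadapt, TopHat2 2.0.13 and rn6 (Rnor_6.0) were used; the sources used here name neither the read counter nor the annotation.

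The authors deposited RPKM per gene and library, relative to reads assigned to the listed genes. RPKM times gene length gave whole reads (within 0.05 for 100% of values up to 2000 reads). Members had a median of 3239 reads per tested member and library. Of 35362 rows, 12182 were 0 throughout.

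The test was limma (version 3.58.1, under R 4.3.3), applied to log2(RPKM + 1) of genes that reached 1 RPKM in 3 libraries or more. It had an intensity trend and the group as only term, two-sided, with Benjamini-Hochberg over all genes, threshold 0.05. Log2 changes and folds are on this scale. The fit was tested on simulated reads. An exact permutation test of 3 against 3 libraries cannot give p under 0.1. Tables and figures used Python 3.11.15, numpy 2.4.6, pandas 2.3.3 and matplotlib 3.10.9.

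The members and lists were chosen with earlier results of these data known. Named by rule were the stalk genes, Rpsa, Rps6, Rps27a, Rpl3, Rpl5 and Rpl11, the 10 largest called rises, the 5 highest levels, paralogues with their partners, the 3 changes nearest 0, untested rows and, per list, up to 4 called genes in each direction. Some genes that this rule takes are not reported here. RefSeq tables (GRCr8) gave names and promoters only: 23 members had no promoter entry and 3, on another chromosome there, were left out. Alternatives were other pseudocounts, filters and scalings, no trend, a replicate block, voom on recovered reads, abundant genes left out, and each library left out. Leaving out together the 2 libraries with the lowest and highest share of ribosomal RNA was chosen after seeing the data.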

Additional observations from a re-analysis of the deposited data

How the results depend on the processing

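Of 17 alternatives, quantile normalization was the only one under which the count of members called higher moved by more than 1.5 times: 24 were called higher, 4 lower, and the median log2 change was 0.074. Over all genes 24.7% were then called higher, with a median of 0.033. With median centring 55 were called higher, and the median was 0.25, beside 0.04 over all genes. The other alternatives with all libraries called 33 (no filter) to 50 (voom on recovered reads) members higher and 0 lower. With each library left out in turn, 35 to 51 members were called higher, 0 to 1 lower (Rpl22l1 without S487A replicate 2), and medians ran from 0.17 to 0.22. Without ribosomal RNA reads the share of reads in ribosomal protein genes was 3.27% in S487D and 2.82% in S487A. Over 525 values of 31 named genes, 470 kept direction and call, 31 lost a call (10 genes), 13 gained one (6 genes) and 11 changed sign (7 genes). Quantile normalization turned Rpl10 (-0.0055), Rpl21 (-0.16), Rpl3 (-0.20), Rpl31 (-0.082) and Rps12 (-0.013). Rpl34 turned with median centring (0.036) and with the most read genes and ribosomal RNA left out (0.0030), and Rpl39 with median centring (0.032) and without S487A replicate 1, S487A replicate 3 or S487D replicate 3 (range over libraries left out -0.098 to 0.018). The causes were not tested.

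With a replicate block, 36 members were called higher and 0 lower, and 5335 genes were called in place of 5564. Under the block Rpsa, Rplp0, Rps10 and Rpl7 were not called (limma adjusted p = 0.0630, 0.0794, 0.0644 and 0.0550), and Rps27l3 was called higher (limma adjusted p = 0.0243). No effect shared by same-numbered libraries was seen: across genes, their deviations from the group means correlated at 0.00, -0.06 and 0.01. These values cannot show whether such libraries were prepared together, and the labels state no pairing. RPKM is relative to the reads of each library, so absolute amounts per cell were not measured, and 3 libraries per group limit the precision.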

Other observations

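The table listed 62 rows under a number that RefSeq (GRCr8) names as ribosomal protein genes or copies, and 15 of them were tested. Beside Rps27a, Rpl36l6 was higher in S487D, at 15.6 ± 3.86 RPKM in S487A and 24.6 ± 4.59 in S487D (SD, n = 3 each; log2 change 0.63, limma adjusted p = 0.00996). Rpl19l4 was lower (14.4 ± 1.66 and 11.8 ± 1.05 RPKM, -0.26, limma adjusted p = 0.0354), and 11 had no call. The last, Rps26l6, passed the filter only through S487A, with 4, 6 and 6 reads against 2, 0 and 1 in S487D, so its lower call is not taken as a result. Such copies can share reads with the genes they resemble, and these rows were looked up after the values were seen.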
